A study of Cavia porcellus with 24 samples.

Results

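In the genome of the guinea pig, 4039 CpG sites were largely methylated in whole blood and largely unmethylated in hippocampus of control animals. They were chosen from 463059 CpGs whose plus-strand and minus-strand cytosines were both listed in the tables of both tissues, with 20 or more reads in all 4 groups on each strand, and made up 0.872% of them. The choice used the minus strand of the control animals only, at most 20% methylation in hippocampus and at least 70% in blood. These sites are called members below. All levels and differences below were read on the plus strand unless another strand is named, and "open" means low methylation here, since chromatin was not assayed.

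The 24 samples were hippocampus and whole blood from the same 12 female offspring, collected on postnatal day 14, 1 offspring per litter. Betamethasone, a synthetic glucocorticoid (sGC), had been given to the dams of 6 offspring at 1 mg/kg, in a course of 2 daily doses started on gestational day 40, on day 50 and again on day 60, and the dams of the other 6 were given saline (Con). Methylation was measured by reduced representation bisulfite sequencing (RRBS), in which DNA is cut at MspI sites and unmethylated cytosines are converted, so that the share of reads keeping a cytosine gives its methylation. The reads of the 6 animals of a group were pooled in the deposited tables, so each cytosine has 1 value per tissue and treatment, the spread between animals is not known, and every test below compares pools of reads and not animals. At the 4039 CpGs the median depth on the plus strand was 99 reads in Con hippocampus, 105 in sGC hippocampus, 79 in Con blood and 101 in sGC blood.

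In vertebrates most CpGs of the genome are methylated, while CpGs in active promoters and enhancers, where proteins bind DNA, are often not. Low methylation of regulatory DNA is set as cell lineages form, so that brain and blood cells differ at many enhancers. Hippocampus is a mixture of neurons, glia and vascular cells, and the DNA of whole blood comes from its leukocytes. A value in such bulk tissue is an average over cell types, and a shift in the make-up of the cells cannot be told apart from a change within cells. The scaffolds and positions are those of the cavPor3 assembly as the deposited tables give them. Whether a site lies in an exon, an intron or between genes, and the sequence around it, were not analysed here, because no genome or annotation of that assembly was used.

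The minus-strand Con values that chose the sites had a median of 14.5% in hippocampus and 81.4% in blood. On the plus strand the same Con animals gave a median of 15.7% in hippocampus (quartiles 9.93% and 21.5%) and 81.6% in blood (74.7% and 87.8%). In the sGC animals, which the choice did not use, the medians were 21.7% in hippocampus (14.8% and 28.3%) and 89.3% in blood (82.1% and 94.2%). The distributions of the tissues hardly overlapped in either treatment. Both limits of the choice were also met by the Con plus strand at 2395 of the 4039 CpGs (59.3%). The plus strand was above 20% in Con hippocampus at 1226 CpGs (30.4%) and below 70% in Con blood at 533 (13.2%). At the edge of the choice, the CpG just inside the hippocampal limit had 20% on the minus strand and the one just outside had 20.1%, with 33.3% and 33.8% on their plus strands. At the blood limit the CpG just inside had 70% and the one just outside 69.9%, with plus strands at 75.9% and 70%.

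**Figure D1:**
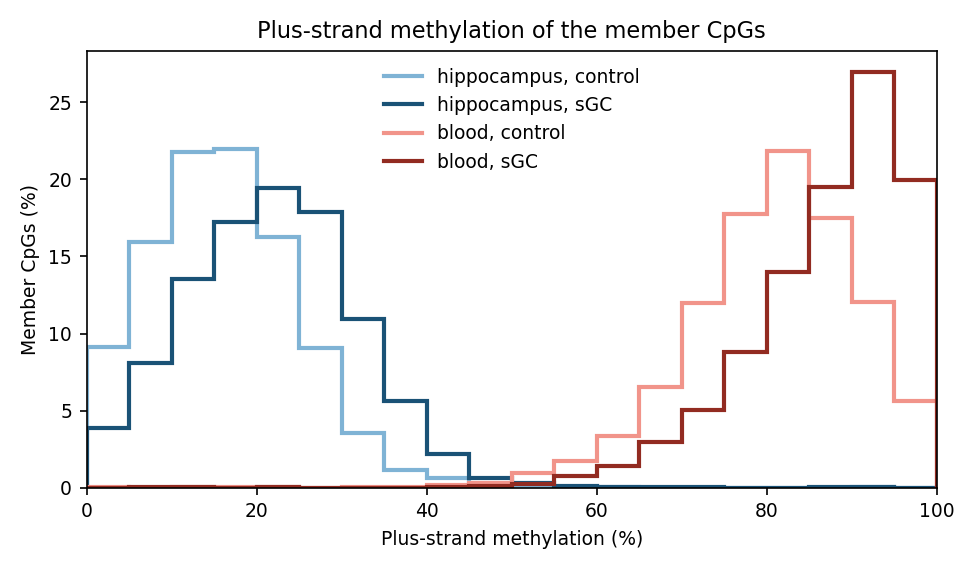
Share of the 4039 member CpGs (%) in each 5-point bin of plus-strand methylation (%), 1 outline per pool of 6 animals. Hippocampus (blue) lies at the left, with a median of 15.7% in Con and 21.7% in sGC, and blood (red) at the right, with 81.6% and 89.3%, so that the sGC outline is shifted to the right in both tissues.

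The tissue difference was also present in the animals that the choice had not seen. In the sGC pools, blood was called higher than hippocampus at 4028 of the 4039 CpGs (99.7%), against 19.8% of all 463059 CpGs (two-sided Fisher's exact test per CpG, Benjamini-Hochberg adjusted p below 0.05 and at least 5 percentage points). None was called lower in blood, against 6.53% of all. The difference had a median of 65.5 points (quartiles 57.8 and 73.2). It was above 0 at 4038 CpGs, and at the remaining 1, on scaffold DS562916.1 at 9951227, it was -1.19 points. That CpG had only 24 reads in sGC hippocampus and 21 in sGC blood, and its hippocampal plus strand was already at 57.1% in Con, against 15.8% on the minus strand.

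With members within 200 bp joined, the 4039 CpGs formed 2145 regions on 187 of the 832 scaffolds that held an eligible CpG. A single CpG made up 1385 regions (64.6%), 616 regions held 2 to 4, 115 held 5 to 9 and 29 held 10 or more, together 399 CpGs. The regions of 10 or more were between 43 and 715 bp wide, with a median of 194 bp. The median number of other eligible CpGs within 100 bp was 3, as over all eligible CpGs. Members with 10 or more such neighbors made up 12.6%, against 8.34% of all, 13.3% of the CpGs open in both tissues and 3.85% of the 2131 CpGs with the mirror pattern, methylated in hippocampus and open in blood. Hippocampal methylation was lower in larger regions. In Con hippocampus the median was 18.75% in single CpGs, 16.1% in regions of 2 to 4, 12.8% in regions of 5 to 9 and 6.90% in regions of 10 or more, while Con blood had 80%, 81.6%, 82.8% and 84.4%.

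The low level in hippocampus was a dip in a methylated surrounding. Around the 144 regions of 5 or more CpGs, the eligible CpGs that were not members had a median of 17.4% in Con hippocampus at 1 to 100 bp from the edge of the region, 23.8% at 201 to 500 bp, 44.3% at 501 to 1000 bp and 70.6% at 2001 to 4000 bp. In Con blood the same distances gave 78.5%, 82.2%, 88.2% and 88.6%. A difference between the tissues of 50 points or more was present at 63.5% of the neighbors within 100 bp and at 7.86% of those at 2001 to 4000 bp. Con blood was also lower near the regions, with 74.7% at 101 to 200 bp, but its fall was smaller than that of hippocampus. The choice required low hippocampus and high blood in these same Con animals. The contrast at the regions themselves was thus set by the choice and is a description only.

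**Figure D2:**
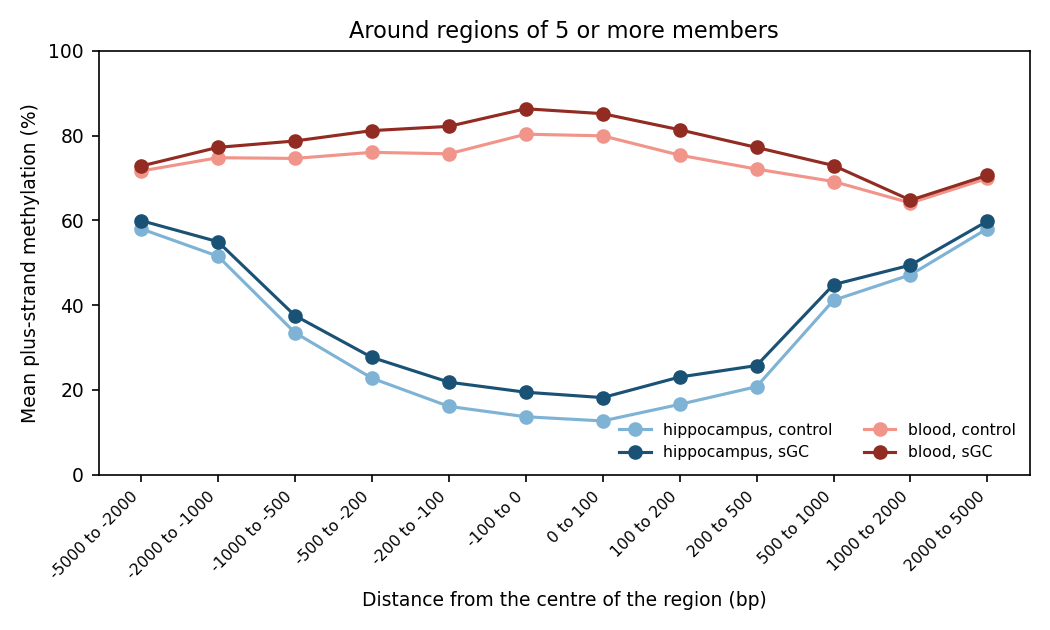
Mean plus-strand methylation (%) of all eligible CpGs by distance (bp) from the centre of the 144 regions of 5 or more members, 1 line per pool of 6 animals. In Con hippocampus the mean is 12.7% at 0 to 100 bp and 58.0% at 2000 to 5000 bp, while Con blood stays between 64.1% and 80.3%, and in each bin the sGC point lies above the Con point of its tissue.

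With sGC, methylation at these CpGs was higher in both tissues. In hippocampus the difference of sGC less Con had a median of 5.73 points (quartiles 1.06 and 10.3), with 3211 CpGs higher (79.5%), 816 lower and 12 equal. In blood the median was 6.83 points (1.23 and 11.4), with 3241 higher (80.2%), 790 lower and 8 equal. Over all 463059 CpGs the medians were 0.654 points in hippocampus and 0.40 points in blood. The difference was above 0 in both tissues at 2695 CpGs (66.7%, against 32.3% of all) and below 0 in both at 276 (6.83%, against 20.99%). Since the hippocampal level is low and the blood level high, a rise moved hippocampus toward blood and blood away from hippocampus. The mean distance between the tissues was therefore similar in the treatments, at 64.5 points in Con and 65.2 points in sGC.

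Single CpGs seldom passed the test at this depth. In hippocampus 58 CpGs in 33 regions were called higher (1.44%, against 0.0989% of all CpGs) and 0 lower (against 0.0473%). In blood 241 CpGs in 166 regions were called higher (5.97%, against 0.285% of all) and 1 lower (against 0.178%). These calls used the two-sided Fisher's exact test with adjustment over all cytosines listed in the tissue. At an unadjusted p below 0.05, hippocampus had 997 higher and 20 lower, where 4.63% and 1.69% of all CpGs passed, and blood had 1318 higher and 31 lower, where 4.74% and 2.54% passed. The calls take reads as independent. When the test statistic was divided by the inflation seen over all cytosines (1.76 in hippocampus and 1.73 in blood), 0 CpGs were called higher in hippocampus and 7 in blood. The share of all CpGs called after this division is not given, so these counts cannot be set against it. The Con animals also entered the choice of the sites, and the plus strand removes the counting error of that choice but not the choice of these 6 animals. On the minus strand itself the median differences were 8.19 points in hippocampus and 5.71 points in blood. With the sites chosen on the sGC animals in place of the Con animals, 2522 CpGs were found, 1583 of them also among the 4039, and the median differences were 4.44 and 5.76 points.

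**Figure D3:**
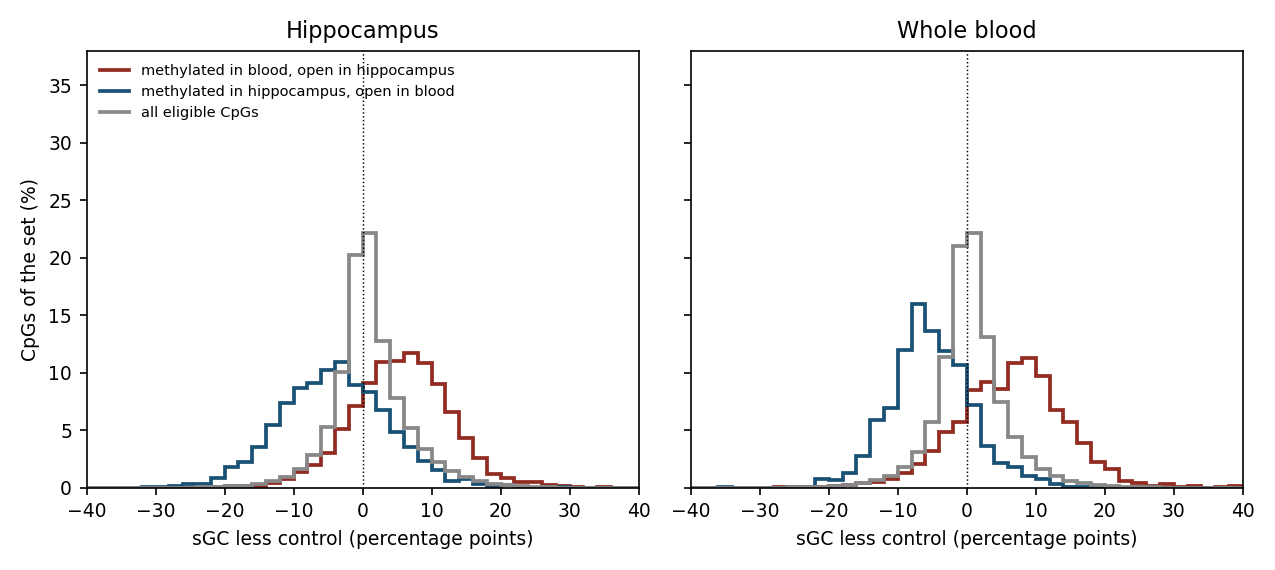
Share of CpGs (%) by the difference of sGC less Con on the plus strand (percentage points, 2-point bins), in hippocampus (left) and whole blood (right), for the member CpGs (red), the 2131 mirror CpGs (blue) and all 463059 eligible CpGs (grey). The red outline lies right of 0 with medians of 5.73 and 6.83 points, the blue outline left of 0 with medians of -4.11 and -5.52 points, and the grey outline is narrow, with medians of 0.654 and 0.40 points.

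The direction followed the direction of the tissue difference. The 2131 mirror CpGs were lower with sGC in both tissues, with medians of -4.11 points in hippocampus and -5.52 points in blood. CpGs that did not differ between the tissues hardly moved, with medians of 0.152 and -0.0749 points at the 123621 open in both and 0.606 and 0.429 points at the 220474 methylated in both. When all eligible CpGs were binned by blood less hippocampus on the minus strand of Con, the mean sGC difference in hippocampus was -4.24 points for a tissue difference between -80 and -60 points, 0.940 points between 0 and 20, 3.72 points between 20 and 40, and 5.60 points between 60 and 80. In blood the same bins gave -5.03, 0.421, 2.51 and 5.62 points. The course was not monotonic to the end, with 2.85 and 3.08 points in the 449 CpGs of the bin between 80 and 100. At the members, the mean change was 8.78% of the mean tissue difference in hippocampus and 9.91% in blood. Over all eligible CpGs it was 20.8% and 10.2%, where the Con means of the tissues lay closer together, at 55.1% and 60.3%.

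**Figure D4:**
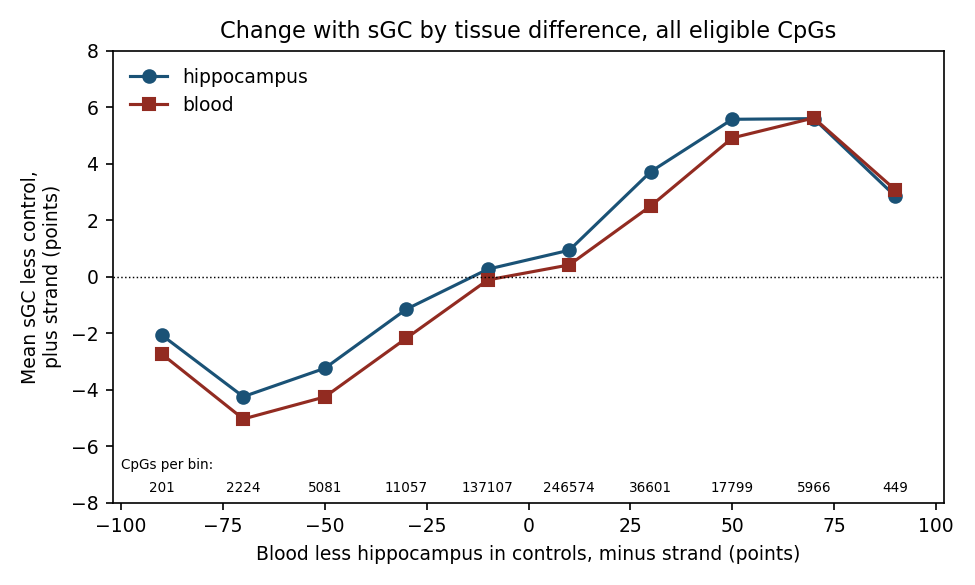
Mean difference of sGC less Con on the plus strand (points) for all eligible CpGs in bins of 20 points of blood less hippocampus in Con on the minus strand, for hippocampus (circles) and blood (squares), with the number of CpGs per bin along the bottom. Both lines pass near 0 where the tissues are alike and reach 5.60 and 5.62 points between 60 and 80, then fall to 2.85 and 3.08 points in the last bin.

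The size of the difference varied with sequencing depth. Among members with fewest reads over the 4 pools between 20 and 49, the median was 3.03 points in hippocampus and 3.51 in blood, at 1049 CpGs. At the 1693 CpGs with 50 to 99 reads it was 4.38 and 5.02 points, and at the 1297 CpGs with 100 or more reads it was 8.28 and 9.77 points, with 95.4% of them higher in hippocampus and 95.9% higher in blood. The CpGs with 100 or more reads held 38 of the 58 hippocampal calls and 180 of the blood calls. Calls were also more frequent at greater depth over all eligible CpGs. Between 20 to 49 reads and 100 or more reads, the called share rose from 0.0366% to 0.241% in hippocampus and from 0.0939% to 0.824% in blood. The median difference over all eligible CpGs showed no such increase as at the members. At 20 to 49 reads and at 100 or more reads it was 0.808 and 0.617 points in hippocampus and 0.356 and 0.439 points in blood. The mirror CpGs had medians of -0.423 and -3.26 points at 20 to 49 reads and -7.32 and -7.28 points at 100 or more. The part of depth in these differences was not tested. The ratio of sGC to Con reads was 1.08 in hippocampus and 1.27 in blood at the members, and 1.11 and 1.26 over all.

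The sGC effect was not called different between the tissues at any member CpG. A z test of the log odds ratios gave 0 calls (against 0.0158% of all CpGs), with a lowest adjusted p of 0.492. At an unadjusted p below 0.05 it gave 398 CpGs (9.85%, against 4.69% of all). At 298 of these the log odds ratio of sGC to Con, taken with its sign, was higher in blood than in hippocampus. A call was shared by both tissues at 13 CpGs (0.322%, against 0.0546% of all), and 287 were called in either (7.11%, against 0.555% of all). The 58 CpGs called in hippocampus were all higher in blood as well. On the minus strand 57 of them were higher, but only 12 were also called there. Of the 241 called higher in blood, 232 were higher in hippocampus and 229 on the minus strand, where only 55 were also called. Among all members, called or not, 79.5% were higher in hippocampus and 80.2% in blood. On the minus strand 86.8% were higher in hippocampus and 75.1% in blood. The minus strand of Con chose the sites, so its differences are not independent of the choice. The same animals gave both tissues, so these counts do not come from separate animals. The CpG called lower in blood was a single site on scaffold DS562908.1 at 7539469, with 75.3% of 73 reads in Con and 43.5% of 92 reads in sGC (Fisher's exact test, adjusted p = 0.0177). Hippocampus had 5.68% and 2.53% there, and the minus strand of blood fell by 27.3 points.

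The means of the larger regions were mostly higher with sGC as well. The region mean was higher with sGC in hippocampus in 131 of the 144 regions of 5 or more CpGs (91.0%) and in blood in 127 (88.2%). Over all 2145 regions the shares were 81.6% and 83.1%. Among the 29 regions of 10 or more, hippocampus was higher in 29 and blood in 26. Counted by CpG, 75.2% in these regions were higher in hippocampus and 76.7% in blood. In regions of a single CpG the shares were 79.8% and 81.3%, so the CpGs of larger regions were not higher more often. The means of the 29 regions ran from 1.68% to 19.8% in Con hippocampus and from 3.55% to 30.6% in sGC hippocampus. In blood they ran from 67.7% to 95.4% in Con and from 64.4% to 97.0% in sGC. The lowest mean difference in hippocampus among the 144 was in a region of 8 CpGs on scaffold DS562908.1 (9644784 to 9644851), with 20.1% in Con and 12.4% in sGC. In blood it was in a region of 5 CpGs on DS562858.1 (29631132 to 29631153), with 87.0% in Con and 79.2% in sGC.

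Gene names were available for few of the regions. They came from the cytosines that the supplementary tables of the study pair with a gene, which are cytosines listed there for their sGC difference in these samples, so that the direction of a named region is not independent evidence. The copies of 2 of these tables used here were incomplete, so the counts that follow cover the names in hand. Of 170 names, 46 fell on 60 regions with 189 CpGs (4.68% of the 4039). Of the lists of cell type markers, neurodevelopmental transcription factors and glucocorticoid signalling genes, NFIA was the only gene with a member, in 5 regions. Most genes of these lists had no name in the tables, so nothing can be read from their absence.

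Of the 144 regions of 5 or more CpGs, the one with the largest mean difference in blood lay in KIF21B. KIF21B, a kinesin motor protein of neurons and immune cells, had a region of 11 CpGs on DS562867.1 (21373562 to 21373719) with means of 1.76% in Con hippocampus, 14.1% in sGC hippocampus, 74.6% in Con blood and 95.7% in sGC blood. Every one of the 11 CpGs was higher with sGC in both tissues, and the Con and sGC ranges did not overlap in either, at 0 to 4.69% against 11.3% to 18.0% in hippocampus and 65.7% to 79.8% against 93.0% to 99.2% in blood. By Fisher's exact test, 6 of them were called in hippocampus and 10 in blood. Adjoining CpGs can share reads, here and in the regions below, so calls within a region are not separate observations. At the CpG at 21373692, 0 of 127 reads were methylated in Con hippocampus (Wilson 95% interval up to 2.94%) and 20 of 125 in sGC (16.0%, interval 10.6% to 23.4%), with an adjusted p of 0.00074 by Fisher's exact test. NAV1, a neuron navigator protein that binds microtubules, lies on the same scaffold and had 3 regions. The largest, of 7 CpGs, had 11.1% and 20% in Con and sGC hippocampus and 94.0% and 95.6% in blood, and a second, of 5 CpGs, had 13.1% and 12.2% and then 84.0% and 83.3%. No CpG of NAV1 was called in either tissue.

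Within AGAP2, which encodes a GTPase-activating protein that enhances phosphoinositide 3-kinase and is abundant in brain, regions 284 bp apart differed in their calls. The region of 13 CpGs on DS562864.1 (40096153 to 40096236) had 2.15% in Con and 4.31% in sGC hippocampus, 95.4% in Con and 95.3% in sGC blood, and no call. The region of 6 CpGs (40096520 to 40096543) had 1.76% and 16.0% in hippocampus, where all 6 were called with a lowest adjusted p of 0.000809 by Fisher's exact test, and 80.9% and 94.3% in blood, where 1 was called. These 6 CpGs lie within 24 bp with nearly equal read numbers, so they share reads and are not separate observations. On the minus strand, the CpGs at 40096520 and 40096542 were not called in hippocampus. The tissue difference was thus large in both, while the treatment difference was called in 1 of them. The regions were not tested against each other. Con hippocampus had 53 to 112 reads per CpG in the region of 13 and 151 to 152 in the region of 6. At 9812 bp before the first of these lay a region of 19 CpGs over 715 bp (40085627 to 40086341), a number reached by 1 other region and exceeded only by the region of 36 CpGs described below. Its means were 3.58% and 8.52% in hippocampus and 79.5% and 92.9% in blood, with 0 and 10 CpGs called.

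NFIA, a transcription factor required for the formation of astrocytes, held 25 of the CpGs. In its largest region, with 16 CpGs on DS562857.1 (69850207 to 69850655), the means were 8.46% in Con and 15.1% in sGC hippocampus and 87.1% and 96.0% in blood, with 1 CpG called in hippocampus and 4 in blood. At the CpG at 69850468, Con blood had 119 of 151 reads methylated (78.8%, Wilson interval 71.6% to 84.6%) and sGC blood 162 of 168 (96.4%, 92.4% to 98.4%). The mean was higher with sGC in 4 of the 5 NFIA regions in hippocampus and in all 5 in blood. In the fifth, the CpG at 69805199 had 17.3% of 127 reads methylated in Con and 23.6% of 123 in sGC hippocampus, whereas the other of its 2 CpGs had 90.3% of 31 reads and 72.4% of 29, against a low minus strand.

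The lowest adjusted p among the CpGs called in hippocampus belonged to ARID5B. ARID5B, an AT-rich DNA-binding regulator of transcription, had a region of 4 CpGs on DS562870.1 (12596474 to 12596676) with means of 0.137% in Con and 10.6% in sGC hippocampus and 67.8% and 81.7% in blood. At its first CpG, 0 of 168 reads were methylated in Con hippocampus, which by the Wilson interval allows up to 2.24%, and 32 of 219 in sGC (14.6%, interval 10.5% to 19.9%), with an adjusted p of 1.68e-05 by Fisher's exact test. On the minus strand the same CpG rose by 18.5 points, from the low Con value that chose it, so this rise is not independent of the choice. In blood none of the 4 CpGs was called.

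In several named regions, CpGs passed the test in blood and not in hippocampus. SNX20, a sorting nexin that binds a leukocyte adhesion ligand, had 8 CpGs with 11.7% and 19.0% in Con and sGC hippocampus and 87.4% and 97.3% in blood, and 3 were called in blood. RAPGEF3, a cAMP-activated exchange factor, had 3 CpGs with 14.5% and 24.4% in hippocampus and 79.8% and 95.4% in blood, where all 3 were called. MDGA1, a cell adhesion protein that limits synapse formation, had 3 CpGs with 17.5% and 31.0%, then 79.1% and 91.4%, with 2 called in blood. IRF2BPL, a nuclear regulator of the nervous system, had 3 regions with 11 CpGs, and its largest had 16.8% and 24.1%, then 78.6% and 94.4%, with 1 called in blood. No CpG was called in either tissue in the regions of MAP3K6, a stress-activated kinase, PHLDB1, a protein of the cell cortex, or TNFRSF19, a member of the tumor necrosis factor receptor family. Their largest regions had 14.5% and 18.4% (MAP3K6), 19.3% and 30% (PHLDB1) and 15.7% and 23.1% (TNFRSF19) in Con and sGC hippocampus. The difference between the tissues in the sGC effect was not called at any of these CpGs.

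Most of the largest regions carried no gene name. The largest, with 36 CpGs on DS562925.1 (8501240 to 8501629), had means of 13.2% and 19.8% in Con and sGC hippocampus and 89.0% and 95.5% in blood. RRBS reads start at fixed sites, so adjoining CpGs share reads, and their differences came in steps. Over 7 adjoining CpGs (8501391 to 8501423), hippocampus went from 12.6% to 38.6%, with differences between 23.6 and 28.1 points. Over the next 11 (8501460 to 8501512), it was 10.8% and 10.9%, with differences between -1.19 and 2.02 points, although their minus strand differed by 13.8 to 18.5 points. The strands of the same CpGs are covered by separate reads, and here the minus strand was higher with sGC and the plus strand was not, with no call on either. The choice required low Con values on the minus strand, so its difference is not independent of the choice. None of the 36 CpGs was called in hippocampus and 3 were called in blood.

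A similar step was present in the region of 14 CpGs on DS562927.1 (7767954 to 7768079), in which 7 were called in hippocampus. Its first 7 CpGs (to 7767985) went from 9.68% in Con to 36.3% in sGC hippocampus, and all 7 were called on each strand. The minus-strand calls are not independent of the choice, which required low Con values on that strand. The 5 CpGs from 7768019 to 7768039 had 6.81% and 9.55%, with no call. In blood the first 7 had 84.1% and 92.6% and the other 5 had 83.3% and 89.7%, with no call in either. Such CpGs share their reads and are not separate observations. The stretches were set where the number of reads changed by over 15% and were looked at after their values were seen. Among all 4039 CpGs, the strands of 1 CpG differed from each other in their sGC difference by a median of 5.76 points in hippocampus and 5.67 points in blood, about as much as the difference itself.

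**Figure D5:**
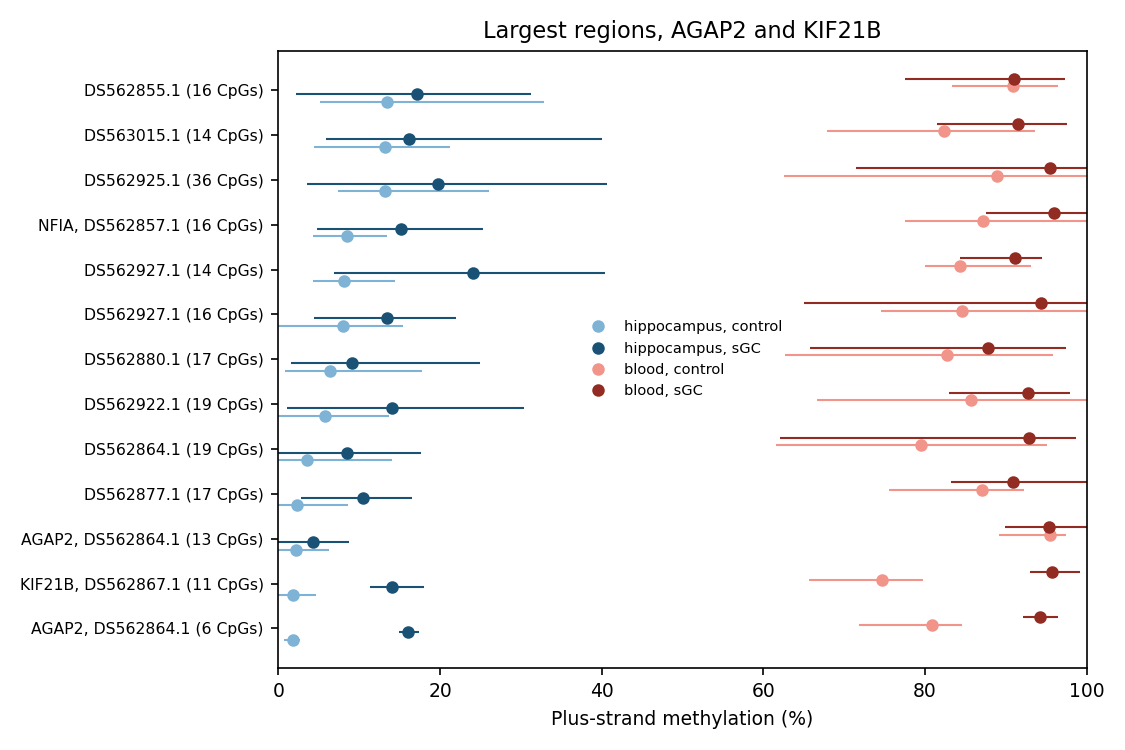
Plus-strand methylation (%) in the 10 largest regions and the named regions of AGAP2 and KIF21B, with the mean over the CpGs of a region as a point and their lowest and highest value as a line, 1 color per pool of 6 animals. In the KIF21B region, hippocampus goes from 1.76% to 14.1% and blood from 74.6% to 95.7% without overlap, while in the AGAP2 region of 13 CpGs blood stays at 95.4% and 95.3%.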

How the data were processed

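Reads were trimmed (Trim Galore) and aligned (Bismark 0.16.0, with SAMtools 1.7) by the authors, as the submitters' processing notes list. The deposited table of each tissue gives counts of methylated reads per cytosine and the coverage, both not normalized and pooled from 6 animals per group, with at least 10 reads in each. The tables also hold an FDR from the authors' own comparison, which was not used. Batch, single animals and bisulfite conversion were not analysed here. Depth limits each percentage, and Wilson 95% intervals cover counting error only.

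Each cytosine was tested by Fisher's exact test, two-sided, adjusted over the 2869370 cytosines listed in hippocampus or the 2927801 in blood. Tissue differences and their interaction with sGC (z test of log odds ratios, 0.5 added to each count) were adjusted over the 463059 eligible CpGs. The tests were checked on simulated data with independent reads and no spread between animals. That check therefore does not cover such spread in these data. The sites and gene lists were chosen with earlier results of these data known. Regions named were the 10 with the most CpGs, the 10 per tissue with the lowest p among those holding a call, and those in genes of the lists or named in the study. A gene name was given within 1000 bp of the cytosines listed for it. Single CpGs named were the most deeply read of a region and those at the limits of the choice, and other single CpGs and regions were named after their values were seen. Alternatives changed the read minimum, the limits, the strand, the animals used for the choice, the centring, the unit counted and the test. Scripts ran in Python 3.11.15 (scipy 1.17.1, numpy 2.4.6, numba 0.67.0, pandas 2.3.3, with plots by matplotlib 3.10.9).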

Additional observations from a re-analysis of the deposited data

How the results depend on the processing

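No result turned direction under any alternative. With limits of 10% and 80%, 545 CpGs in 285 regions were found, all 545 called higher in sGC blood than in sGC hippocampus, with a median tissue difference of 76.9 points and sGC differences of 3.69 points in hippocampus (12 called higher) and 4.97 in blood (35 higher, 0 lower). With limits of 30% and 60% there were 12031 CpGs in 5951 regions, 11843 called between tissues, 57.4 points, then 5.91 points in hippocampus (105 higher) and 6.07 in blood (546 higher, 6 lower). A minimum of 50 reads left 2432 CpGs in 1384 regions, 2430 of them called between tissues, with 64.9 points, 6.61 points in hippocampus and 7.97 in blood. A minimum of 10 reads gave 65.2 points between tissues and 6.60 in blood. With plus and minus strands exchanged, the sGC difference was 6.09 points in hippocampus and 6.41 in blood (3 called lower). Chosen on the sGC animals, the sites gave 4.44 points (35 called higher) and 5.76 points (113 higher, 0 lower). Less the median of all eligible CpGs, the differences were 5.08 and 6.43 points, and with 1 value per region blood had 6.51 points. After division by the inflation factor, 0 CpGs were called higher in hippocampus, and 7 higher and 0 lower in blood. The cause of these shifts was not tested, apart from the smaller or larger number of sites that the limits and read minimums admit. For the called counts under the alternatives above, the share over all eligible CpGs is not given, so they cannot be set against it. No paired analysis was possible because the deposited columns pool the animals of a group and carry no replicate number, and for the same reason no animal could be left out. Even with 100 or more reads in every pool, 2.93% of the members were called in hippocampus and 13.9% in blood. Of all eligible CpGs at that depth, 0.241% and 0.824% were called.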

Other observations

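At 42 of the 4039 CpGs (1.04%) the plus strand went against the minus strand that chose them, with at least 50% in Con hippocampus at 9 and at most 50% in Con blood at 33. At 16 of the 42 the same held in the sGC pool. The most deeply read of them, on scaffold DS565382.1 at 329, had 39.4% of 170 plus-strand reads methylated in Con blood and 48.95% of 239 in sGC blood, against 85.0% of 60 and 96.8% of 93 on the minus strand. The strands of that CpG thus differed in level, while both were higher with sGC.

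The sites were spread over the genome unevenly. On the 74 scaffolds with 2000 or more eligible CpGs, all of which held members, their share ran from 0.293% to 2.93% with a median of 0.870%, and it was highest on DS563015.1, with 106 of 3614. Scaffold DS562857.1, DS562864.1 and DS562927.1 each held 2 regions of 10 or more CpGs. Outside the rule for named genes, and named after its values were seen, GFI1, a zinc finger repressor in blood cell development, had a region of 12 CpGs on DS562857.1 (18364978 to 18365407) with 1.68% in Con and 6.29% in sGC hippocampus and 74.2% and 83.0% in blood, and no CpG of it was called in either tissue.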
